A study of Mus musculus and Homo sapiens with 9 samples.

Results

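The Krüppel-like factor (KLF) genes followed here were KLF2, KLF3, KLF4, KLF6, KLF7, KLF10, KLF11, KLF12, KLF13 and KLF16, chosen by symbol. All 10 had a row in both count tables, among 64252 human rows and 43432 mouse rows. RNA was sequenced from J.gamma1 cells, a derivative of the Jurkat T cell leukemia line, which carried a control short hairpin RNA (sh-NC, 2 libraries) or a hairpin against IRF2BP2 (sh-IRF2BP2, 2 libraries). RNA was also sequenced from CD3+ T cells that had been magnetically sorted from mouse spleen. Of these libraries, 2 came from Irf2bp2 KO mice, of the genotype Vav-iCre+/-;Irf2bp2fl/fl, and control mice gave the other 3. The labels call the controls wild type, whereas the study's methods give Vav-iCre-/-;Irf2bp2fl/fl, so that both groups would carry the floxed alleles and only the knockout the Cre. Vav-iCre is expressed in hematopoietic cells, so the deletion was not limited to T cells. The human libraries are of 1 cell line, and the age of the sequenced mice was not used here.

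KLF proteins bind GC-rich DNA and CACCC elements through zinc fingers at their C terminus, and the parts outside the fingers decide whether a member activates or represses. KLF2, KLF4, KLF6 and KLF7 are known mainly as activators, KLF3 and KLF12 recruit the corepressor CtBP, and KLF10, KLF11, KLF13 and KLF16 recruit the corepressor SIN3A. In T cells, KLF2 is known for quiescence and for the receptors that let naive cells leave the thymus and enter lymph nodes, KLF10 is a TGF-beta inducible gene, and KLF13 is known as a regulator of CCL5.

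The comparisons address how the KLF genes differed when IRF2BP2 was reduced in leukemic cells or deleted in the blood lineage of mice. The libraries held between 16668577 and 37177523 counts. As counts scaled to library size (CPM), IRF2BP2 measured 204 and 199 with sh-NC and 79.0 and 93.8 with sh-IRF2BP2. Mouse Irf2bp2 measured between 112 and 127 CPM in the controls and 0 in both knockout libraries, where a count of 0 allows up to 0.0845 CPM by counting error alone. The T cell markers were present in both materials, with sums of 2485 to 2804 CPM over 13 genes in J.gamma1 and of 4830 to 7129 CPM in the sorted cells. The sorted cells also held transcripts of erythroid and other cells, which are given with the mouse results. Nothing in the labels says that libraries of 1 group came from separate cultures or animals, so p-values measure the spread between these libraries, which may be technical.

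In J.gamma1 cells, KLF2, KLF3 and KLF10 rose after IRF2BP2 knockdown, and none of the 10 members fell by the test. A gene was called when the adjusted p of edgeR (Benjamini-Hochberg over 15819 genes tested) was under 0.05 and its log2 fold change reached 0.5 or more in either direction. By this rule 3 of 10 members were called higher, against 5.46% of all genes, and 0 were called lower, against 5.01%. The median log2 fold change of the members was 0.37, and that of all genes tested was 0.007. In 8 members both sh-IRF2BP2 libraries were above both sh-NC libraries, an order that 29.6% of all genes shared, and in 1 member, KLF4, both were below, which 28.7% of all genes shared. Summed over the 10 members, the level was 302 and 358 CPM with sh-NC and 468 and 478 CPM with sh-IRF2BP2.

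**Figure D1:**
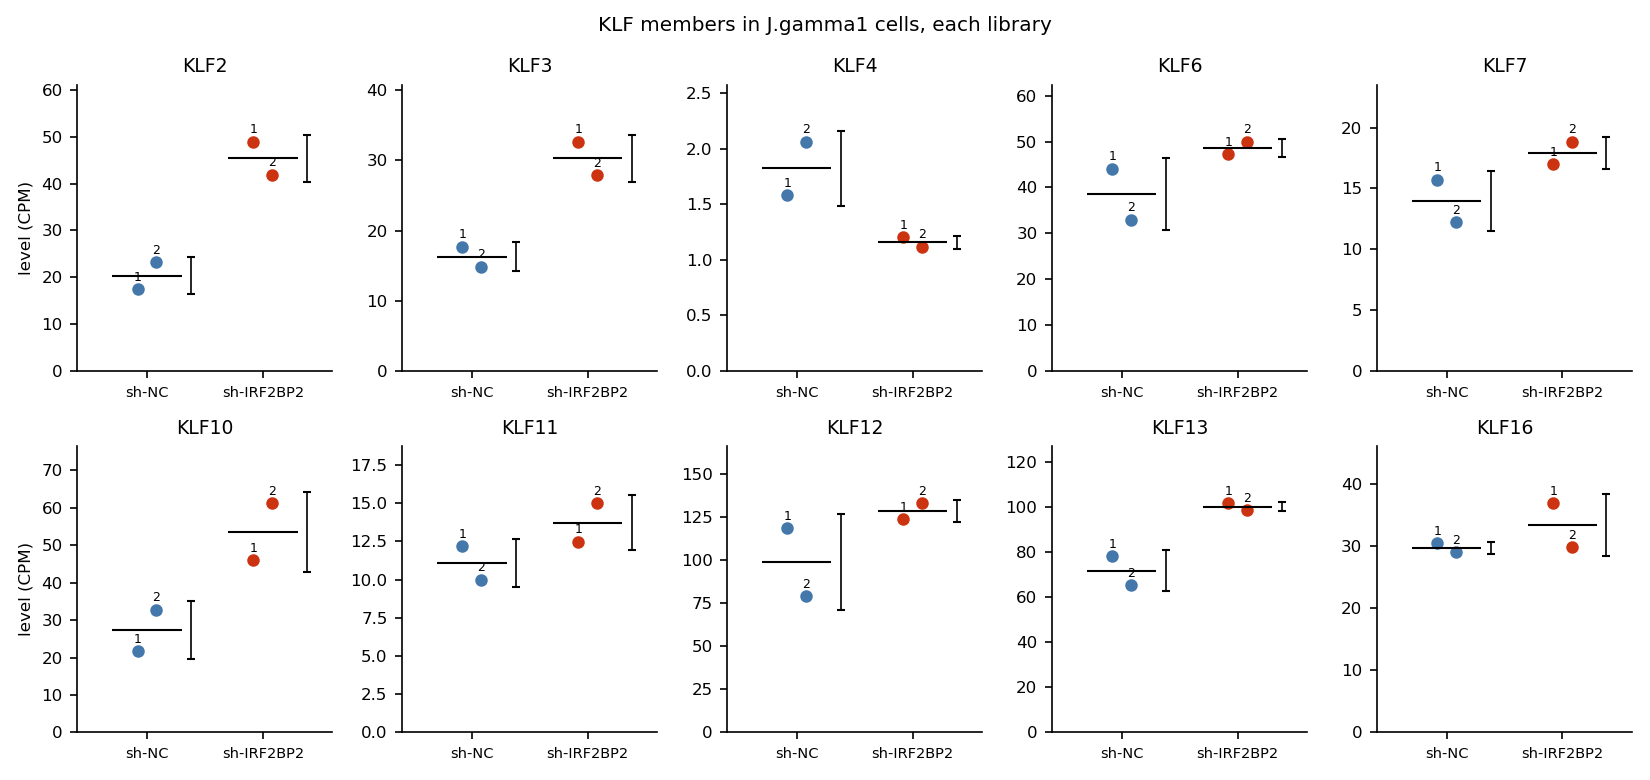
Level of each KLF member in CPM (vertical axis, from 0) in every J.gamma1 library, with sh-NC in blue and sh-IRF2BP2 in red. Numbers beside points are replicate numbers, horizontal lines are group means and the bar at the side is the SD (n = 2). KLF2, KLF3 and KLF10 show the widest gaps relative to their sh-NC level, KLF4 lies lower after knockdown, and the KLF16 groups overlap.

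KLF2, the member known for T cell quiescence, is annotated on hg38 at chr19:16324826-16328685 (ENSG00000127528). It measured 17.5 and 23.2 CPM with sh-NC and 48.9 and 41.9 CPM with sh-IRF2BP2. Both knockdown libraries were thus above both controls, with means of 20.4 ± 4.01 and 45.4 ± 4.98 CPM (SD, n = 2 each). KLF2 was 2.23-fold higher, a log2 fold change of 1.16 (standard error 0.173, 95% interval 0.76 to 1.56) with an edgeR adjusted p of 0.0069. Across 12 other fits, its log2 fold change ranged from 0.97 to 1.37 and the adjusted p from 9.8e-07 to 0.036.

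KLF3, the CtBP-dependent repressor, is annotated on the plus strand of chromosome 4 (ENSG00000109787). It measured 17.7 and 14.9 CPM with sh-NC and 32.7 and 27.9 CPM with sh-IRF2BP2, again without overlap. The means were 16.3 ± 2.03 and 30.3 ± 3.35 CPM (SD, n = 2 each), and the log2 fold change was 0.90 (standard error 0.165, edgeR adjusted p = 0.015). Without sh-IRF2BP2 replicate 1 the log2 fold change was 0.75 and the adjusted p rose to 0.076, the highest of 12 alternatives, whose lowest was 0.00027. An antisense gene, KLF3-AS1, overlaps 3.91% of the KLF3 exon length but had at most 2 counts in any library, against 459 to 951 for KLF3.

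The promoters of KLF2 and KLF3 are shown because they belong to a pair of the genes that rose and differ in the elements they hold. Each runs from 250 bases before to 50 bases after the first base of the GENCODE canonical transcript, on the plus strand of hg38. Capitals mark CACCC on either strand and the MEF2 motif, the binding element of the MEF2 factors known to act on KLF2.
KLF2, chr19:16324576-16324875: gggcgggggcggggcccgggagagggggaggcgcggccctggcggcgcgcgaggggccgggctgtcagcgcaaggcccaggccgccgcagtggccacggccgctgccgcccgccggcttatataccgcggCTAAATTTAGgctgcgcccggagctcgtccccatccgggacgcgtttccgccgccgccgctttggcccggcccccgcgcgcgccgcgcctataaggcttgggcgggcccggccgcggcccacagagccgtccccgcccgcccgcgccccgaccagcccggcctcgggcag
KLF3, chr4:38663949-38664248: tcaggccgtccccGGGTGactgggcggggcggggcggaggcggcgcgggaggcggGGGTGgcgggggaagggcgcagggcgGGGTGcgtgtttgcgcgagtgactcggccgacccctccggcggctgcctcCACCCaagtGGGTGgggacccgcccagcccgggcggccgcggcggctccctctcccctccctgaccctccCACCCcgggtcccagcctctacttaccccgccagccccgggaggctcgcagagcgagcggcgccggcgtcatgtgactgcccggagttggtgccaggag

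The KLF2 window held 1 MEF2 match, beginning at position -120 with the start at 0, and no CACCC. A MEF2 match occurred in 2.01% of the windows of the same length of 20046 protein-coding genes and in no other member. The KLF3 window held 6 matches to CACCC, an element that occurred in 63.7% of all windows and in 5 of the 10 members, with KLF12 at 5, KLF7 at 2 and KLF10 and KLF13 at 1 match each. The GC box GGGCGG occurred in 9 of 10 member windows, all but that of KLF7, and in 61.3% of all windows. Searches for the ETS core CCGGAA, the RUNX element TGTGGT and the FOXO element GTAAACA found no match in any of the 10 windows, against 22.7%, 10.7% and 2.41% of all windows. Every motif was searched on both strands, and matches of different motifs could overlap. The GC content of the member windows ran from 56.7% in KLF7 to 86.0% in KLF16, with 80.7% in KLF2 and 78.0% in KLF3, and the median of all windows was 63.7%. A match is a run of letters and was not tested for binding.

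Among the other activators, KLF6, a widely expressed early-response member, measured 44.1 and 32.9 CPM with sh-NC and 47.2 and 49.9 CPM with sh-IRF2BP2. Its log2 fold change of 0.34 (95% interval -0.04 to 0.71) did not pass the test (edgeR adjusted p = 0.22). KLF7 measured 15.7 and 12.2 CPM against 16.97 and 18.8 CPM (log2 fold change 0.36, edgeR adjusted p = 0.26). In both genes the groups did not overlap, yet the gap between the closest libraries of opposite groups was smaller than the gap between the sh-NC libraries. KLF4, an activator and repressor that restrains T cell proliferation, had the lowest counts, with 41 and 64 under sh-NC and 35 and 33 under sh-IRF2BP2. Its levels were 1.58 and 2.06 CPM against 1.202 and 1.12 CPM. At this depth its log2 fold change of -0.65 carried a 95% interval of -1.55 to 0.24 and did not pass the test (edgeR adjusted p = 0.32).

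KLF12, the second CtBP-dependent member, measured 119 and 79.4 CPM with sh-NC and 124 and 133 CPM with sh-IRF2BP2. The sh-NC libraries differed from each other more than sh-NC replicate 1 differed from either knockdown library. The log2 fold change was 0.38 (95% interval -0.05 to 0.81, edgeR adjusted p = 0.23), and it ranged from 0.11 to 0.69 across alternatives.

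KLF10, the TGF-beta inducible member, was the most raised of the SIN3A-dependent repressors. It measured 21.8 and 32.8 CPM with sh-NC and 46.1 and 61.2 CPM with sh-IRF2BP2. All knockdown values lay above the controls, with means of 27.3 ± 7.80 and 53.6 ± 10.7 CPM (SD, n = 2 each). KLF10 was 1.96-fold higher (log2 fold change 0.97, standard error 0.218, edgeR adjusted p = 0.030). Without sh-IRF2BP2 replicate 2 the log2 fold change was 0.75 and the adjusted p was 0.069, within a range of 0.00016 to 0.11 over 12 alternatives.

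KLF13, the regulator of CCL5, measured 78.2 and 65.4 CPM with sh-NC and 102 and 98.9 CPM with sh-IRF2BP2. It missed both thresholds narrowly, with a log2 fold change of 0.48 (95% interval 0.19 to 0.78) and an edgeR adjusted p of 0.051, which ranged from 0.0050 to 0.25 across alternatives. KLF11, a relative of KLF10, measured 12.2 and 9.99 CPM against 12.5 and 15.0 CPM (log2 fold change 0.31, edgeR adjusted p = 0.37). KLF16, a regulator of metabolic genes, measured 30.5 and 29.1 CPM against 36.9 and 29.9 CPM and was the only member whose groups overlapped (log2 fold change 0.17, 95% interval -0.18 to 0.51, edgeR adjusted p = 0.52). An antisense gene overlaps 16.3% of the KLF16 exon length and had 3 to 8 counts.

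The number of members called depended on single libraries and on the filter on low counts. sh-NC replicate 2 was the lowest of the 4 libraries in 7 members, namely KLF3, KLF6, KLF7, KLF11, KLF12, KLF13 and KLF16, whereas KLF2 and KLF10 were lowest in sh-NC replicate 1. Without sh-NC replicate 1, 6 members were called, since KLF6 (edgeR adjusted p = 0.019), KLF12 (adjusted p = 0.0021) and KLF13 (adjusted p = 0.0050) joined the other 3. Without sh-IRF2BP2 replicate 1 or replicate 2, 2 members were called. With every gene of at least 1 count in any library tested, only KLF2 was called, and the adjusted p was 0.056 for KLF3 and 0.11 for KLF10.

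**Figure D2:**
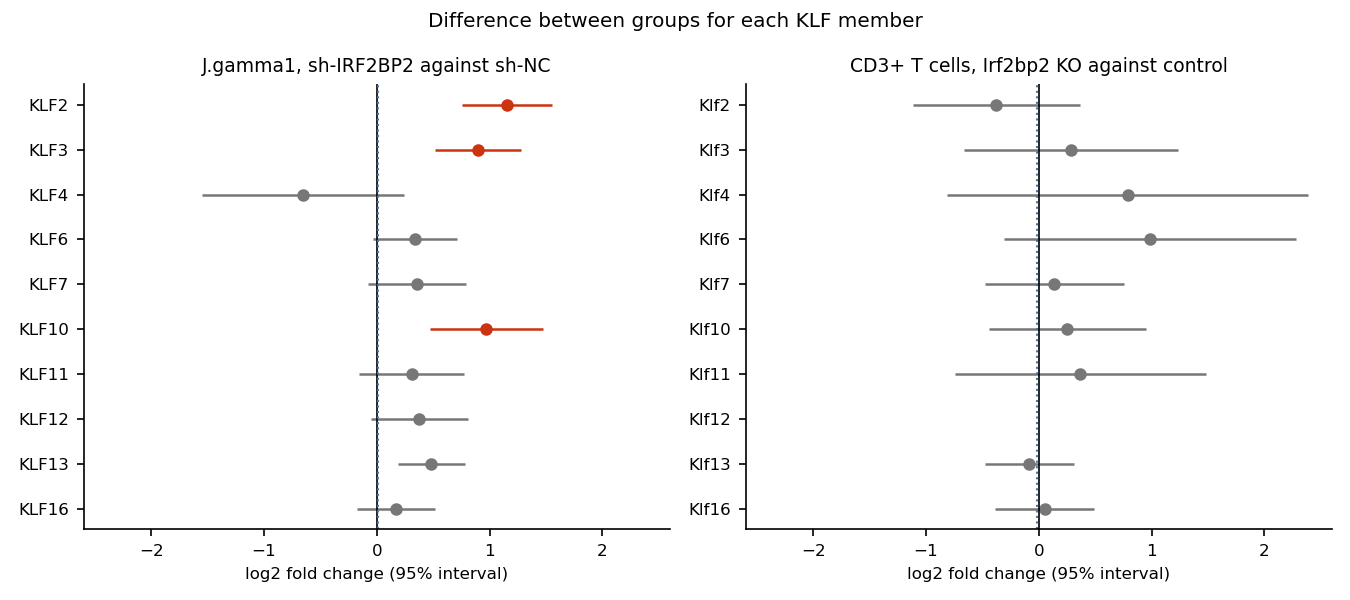
Log2 fold change (horizontal axis) of each KLF member with its 95% interval from edgeR, for J.gamma1 cells on the left and mouse CD3+ T cells on the right. Red marks genes that passed the call rule, grey those that did not, the dotted line is the median of all genes, and Klf12 has no mouse value because it was not tested. In J.gamma1 9 of 10 points lie above 0, and in the mouse every interval spans 0.

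Levels of different members can be compared per length, as CPM per kb of annotated exon. In sh-NC cells the order ran from KLF16 (10.04 ± 0.331, SD, n = 2) over KLF12 (8.58), KLF13 (7.62), KLF2 (7.22), KLF10 (7.14) and KLF6 (6.27) to KLF11 (2.42), KLF3 (2.41), KLF7 (1.45) and KLF4 (0.498 CPM per kb). From KLF16 to KLF6 the range of each gene overlapped that of the gene above it, as did KLF3 with KLF11, so these neighbours did not differ beyond the spread between libraries. Below KLF6, below KLF3 and below KLF7 the ranges were separate. In sh-IRF2BP2 cells KLF2 (16.1 ± 1.77 CPM per kb, n = 2) and KLF10 (14.04 ± 2.81) had the highest means, and KLF16 (11.3), KLF12 (11.1) and KLF13 (10.6) followed, each with a range that overlapped that of the gene above it.

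**Figure D3:**
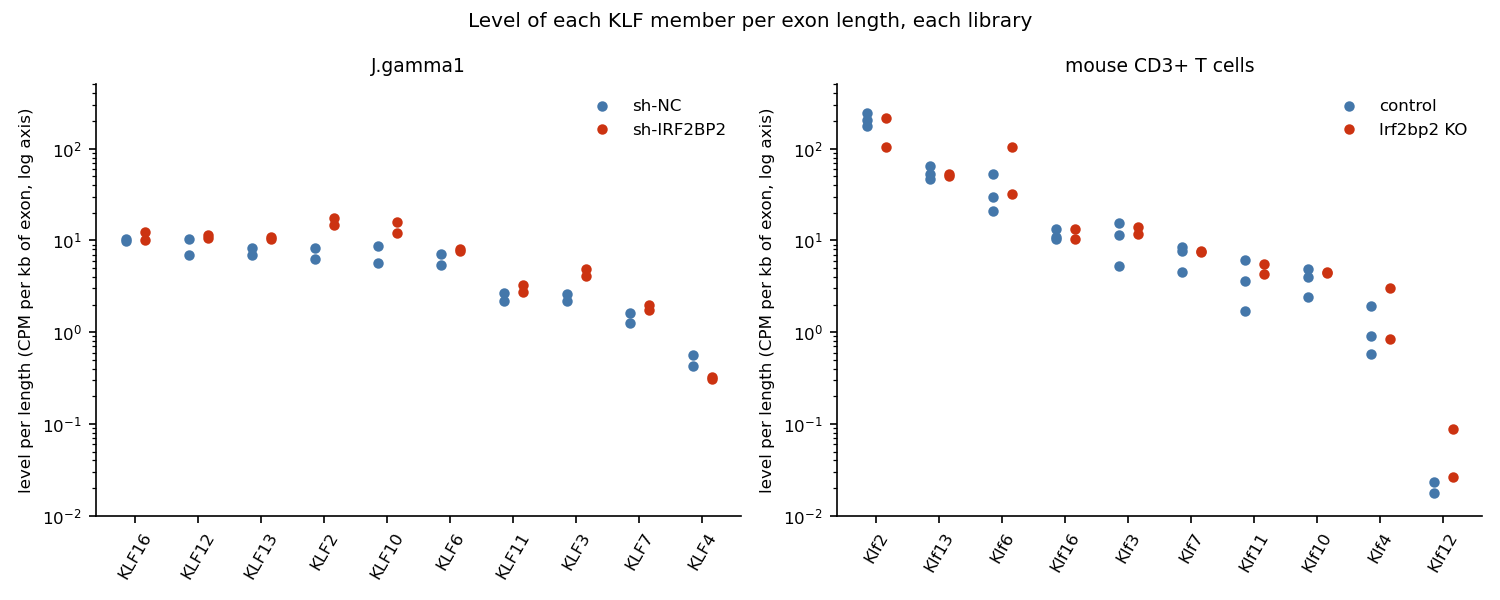
Level of each KLF member in CPM per kb of exon (vertical log axis) in every library, ordered by the mean of the control group, for J.gamma1 on the left and mouse CD3+ T cells on the right. Points are libraries, blue for sh-NC or control and red for sh-IRF2BP2 or Irf2bp2 KO, and 1 control library with 0 counts of Klf12 is not drawn. KLF12 is among the highest members in J.gamma1, whereas Klf12 is the lowest in the mouse cells.

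The rest of the family was described from the SP factors, which share the zinc fingers, and the remaining KLF genes. Of 17 genes, 16 had a row and 11 were tested, with 5 higher and 6 lower. The median log2 fold change of those tested was -0.13 against 0.007 over all genes. By the call rule 0 were higher and 1 lower, against 5.46% and 5.01% of all genes. The sole call was KLF5, a growth-promoting factor of epithelia, which fell from 9.85 and 7.67 CPM with sh-NC to 3.71 and 3.36 CPM with sh-IRF2BP2 (log2 fold change -1.31, edgeR adjusted p = 0.017). Its direction was thus opposite to that of KLF2, KLF3 and KLF10. Larger log2 fold changes in either direction were measured at low counts for KLF15 (-1.795), KLF8 (1.503) and KLF1 (-1.441). These did not pass the test (edgeR adjusted p = 0.066, 0.082 and 0.32). SP1 and SP3, the ubiquitous activators that bind the same GC boxes, had log2 fold changes of 0.36 (edgeR adjusted p = 0.16) and 0.31 (adjusted p = 0.21).

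Regulators of KLF genes were described from a list of 16 genes, of which 15 were tested, 6 were called higher and 3 lower, against 5.46% and 5.01% of all genes, with a median log2 fold change of 0.10 against 0.007 over all genes. FOXO1, which activates KLF2 in T cells, measured 12.2 and 10.9 CPM with sh-NC and 30.9 and 24.5 CPM with sh-IRF2BP2 (log2 fold change 1.26, edgeR adjusted p = 0.0058). Its relative FOXO4 moved the other way (-0.88, adjusted p = 0.025), and FOXO3 did not pass the test (0.10, adjusted p = 0.68). The FOXO4 call was lost without either sh-IRF2BP2 library (edgeR adjusted p = 0.076 and 0.10, within a range of 0.0021 to 0.10). ELF4, an ETS factor that activates KLF2 and KLF4, rose by 0.91 (edgeR adjusted p = 0.0056), while KLF4 did not rise. MEF2A (0.60, adjusted p = 0.034) and MEF2D (0.56, adjusted p = 0.025), whose motif stands in the KLF2 window printed above, rose as well, but both calls were lost when sh-NC replicate 2 or either sh-IRF2BP2 library was left out (log2 fold changes 0.44 to 0.60). The kinases MAPK7 and MAP2K5, which act on MEF2 factors, had edgeR adjusted p-values of 0.82 each. The part of any listed regulator in the KLF values was not tested.

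In the TGF-beta arm, which induces KLF10, the receptor chain TGFBR2 rose by 0.81 (edgeR adjusted p = 0.010) and TGFBR1 fell (-0.76, adjusted p = 0.011). SMAD3 rose by 0.55 (adjusted p = 0.046), a call lost under upper-quartile scaling among other settings, SMAD2 had a log2 fold change of -0.28 (adjusted p = 0.17) and SMAD4 of 0.005 (adjusted p = 0.99). IL7R, a cytokine receptor on the regulator list, fell from 8.84 and 7.96 CPM to 3.81 and 4.24 CPM (log2 fold change -1.06, edgeR adjusted p = 0.028). The IL7R call was lost without sh-IRF2BP2 replicate 1 (edgeR adjusted p = 0.12, within a range of 0.0040 to 0.12) or replicate 2 (0.064), and the TGFBR1 call without sh-IRF2BP2 replicate 2 (0.052, within a range of 5.9e-05 to 0.052). Among 12 cofactors of KLF proteins, 1 was called higher and 0 lower, against 5.46% and 5.01% of all genes. Their median log2 fold change was 0.03 against 0.007 over all genes. The call was CREBBP, an acetyltransferase (1.00, edgeR adjusted p = 0.014, which reached 0.061 with every gene of at least 1 count tested). The corepressors CTBP1, CTBP2, SIN3A and SIN3B, through which KLF3 and KLF10 act, lay between -0.03 and 0.33 without passing the test.

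Genes tied to KLF2 in T cell trafficking are given singly, with no count or median, since the list is reported in part and its shown members need not stand for the rest. S1PR1, the receptor for thymic exit and a known target of KLF2, measured 14.8 and 15.3 CPM with sh-NC and 40.2 and 40.3 CPM with sh-IRF2BP2 (log2 fold change 1.42, standard error 0.134, edgeR adjusted p = 0.0016). ITGB7, an integrin chain of gut homing, rose from a mean of 1.96 to 4.82 CPM (1.30, adjusted p = 0.035), a call lost without sh-IRF2BP2 replicate 1 (edgeR adjusted p = 0.20, within a range of 0.010 to 0.20). The lymph node receptor CCR7 (0.61, adjusted p = 0.12) and CD69, which keeps S1PR1 off the cell surface (0.84, adjusted p = 0.11), did not pass the test.

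Of 12 other reported targets of KLF factors, 9 were tested, 4 were called higher and 0 lower, against 5.46% and 5.01% of all genes. Their median log2 fold change was 0.54 against 0.007 over all genes. By sign, 5 were higher and 4 lower. The lower ones, CDKN1A (-0.595), PLAUR (-0.125), ENG (-1.676) and CCND2 (-0.183), did not pass the test. CDKN1B, the cell cycle inhibitor p27, measured 127 and 155 CPM with sh-NC and 251 and 313 CPM with sh-IRF2BP2 (log2 fold change 1.00, edgeR adjusted p = 0.0089). SMAD7, an inhibitor of TGF-beta signaling that KLF10 represses, rose from 1.04 and 0.419 CPM to 5.56 and 3.46 CPM (2.64, adjusted p = 0.015) beside a rise of KLF10. From such low counts the SMAD7 value was 3.41 when sh-NC replicate 1 was left out and 2.11 when replicate 2 was, and the edgeR adjusted p reached 0.056 with every gene of at least 1 count tested. TGFB1 (0.54, adjusted p = 0.043) and ID2 (2.102, adjusted p = 0.0068) rose too, but the TGFB1 call was lost without sh-NC replicate 1 or either sh-IRF2BP2 library (log2 fold changes 0.42, 0.41 and 0.64, edgeR adjusted p from 0.0061 to 0.29 across alternatives). CCL5, the target of KLF13, was not tested in J.gamma1, where its mean was at most 0.0161 CPM in either group. Of 17 immediate early genes, a class to which KLF4, KLF6 and KLF10 are often counted, 15 were tested, with 10 higher and 5 lower. Their median log2 fold change was 0.17 against 0.007 over all genes. FOS, JUN and JUND were called higher (log2 fold changes 2.202, 1.01 and 0.59), against 5.46% of all genes. All 3 calls were lost without sh-IRF2BP2 replicate 2 (edgeR adjusted p of 0.32, 0.061 and 0.076), and that of JUND also without sh-NC replicate 1 or sh-IRF2BP2 replicate 1 (log2 fold changes 0.48 and 0.51). Their part in the KLF results was not tested.

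**Figure D4:**
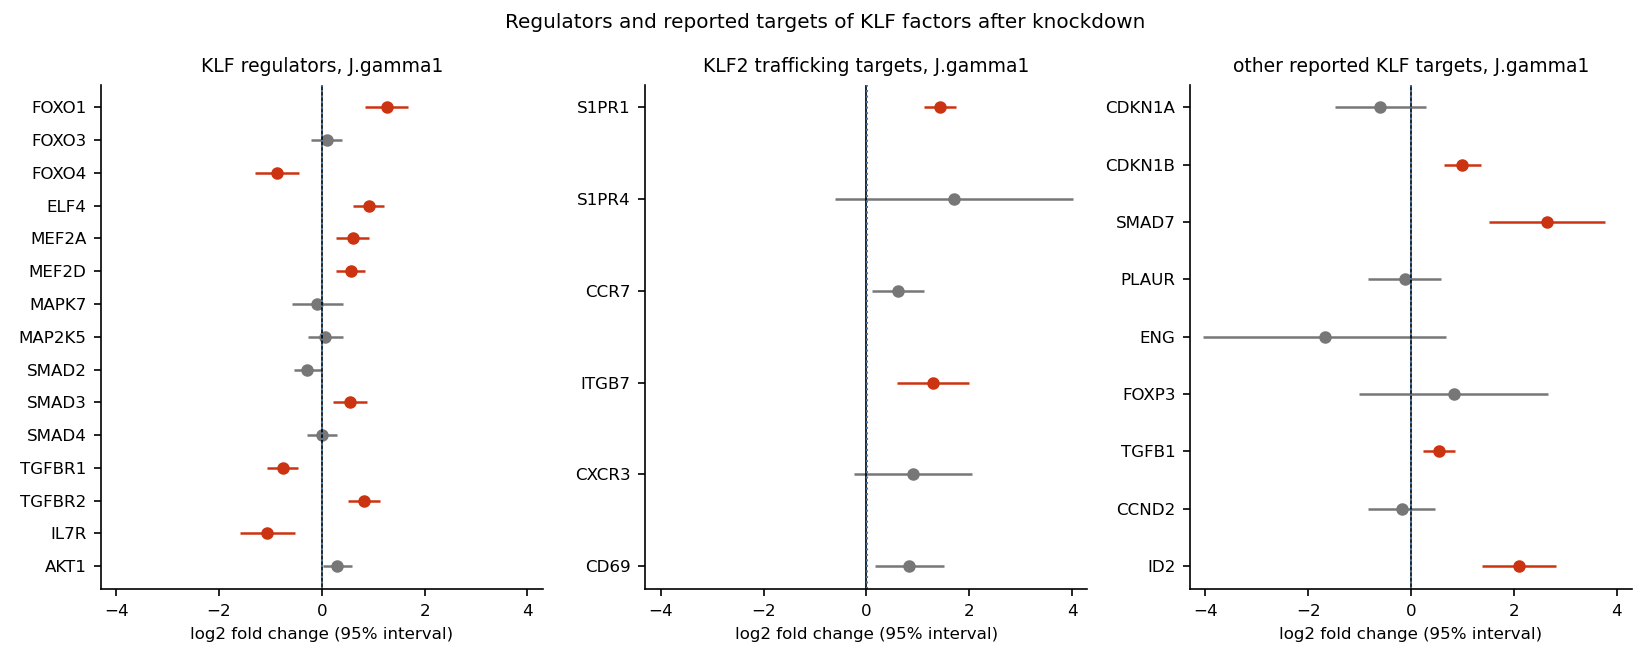
Log2 fold change after IRF2BP2 knockdown in J.gamma1 cells (horizontal axis) with the 95% interval from edgeR, for regulators of KLF genes, some genes of T cell trafficking tied to KLF2, and other reported KLF targets. Red marks called genes and grey the others, and the dotted line is the median of all genes. The whole intervals of FOXO1 and S1PR1 lie right of 0, whereas those of FOXO4, TGFBR1 and IL7R lie left of it.

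In mouse splenic CD3+ T cells, none of the tested KLF members was called in the knockout, and their values spread widely between libraries of 1 group. Of the 10 members, 9 passed the filter on low counts. By edgeR's test over 15350 genes, with an adjusted p under 0.05 and a difference of 1 or more on the log2 scale, 0 of the 9 were called higher, against 2.47% of all genes, and 0 lower, against 0.111%. At an unadjusted edgeR p under 0.05 the count was also 0, against 2488 of the 15350 genes. DESeq2 called 0 members, and its count over all genes is given in the closing section. With so few of all genes called after adjustment, 0 calls among 9 members tell little about them. The median log2 fold change of the tested members was 0.25 and that of all genes -0.018. The groups overlapped in all 9, whereas both knockout libraries were above the 3 controls in 18.2% of all genes and below them in 17.8%. With a biological coefficient of variation of 0.271, against 0.165 in J.gamma1, most intervals were wide. The difference in response between the cell line and the mouse cells was not tested.

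**Figure D5:**
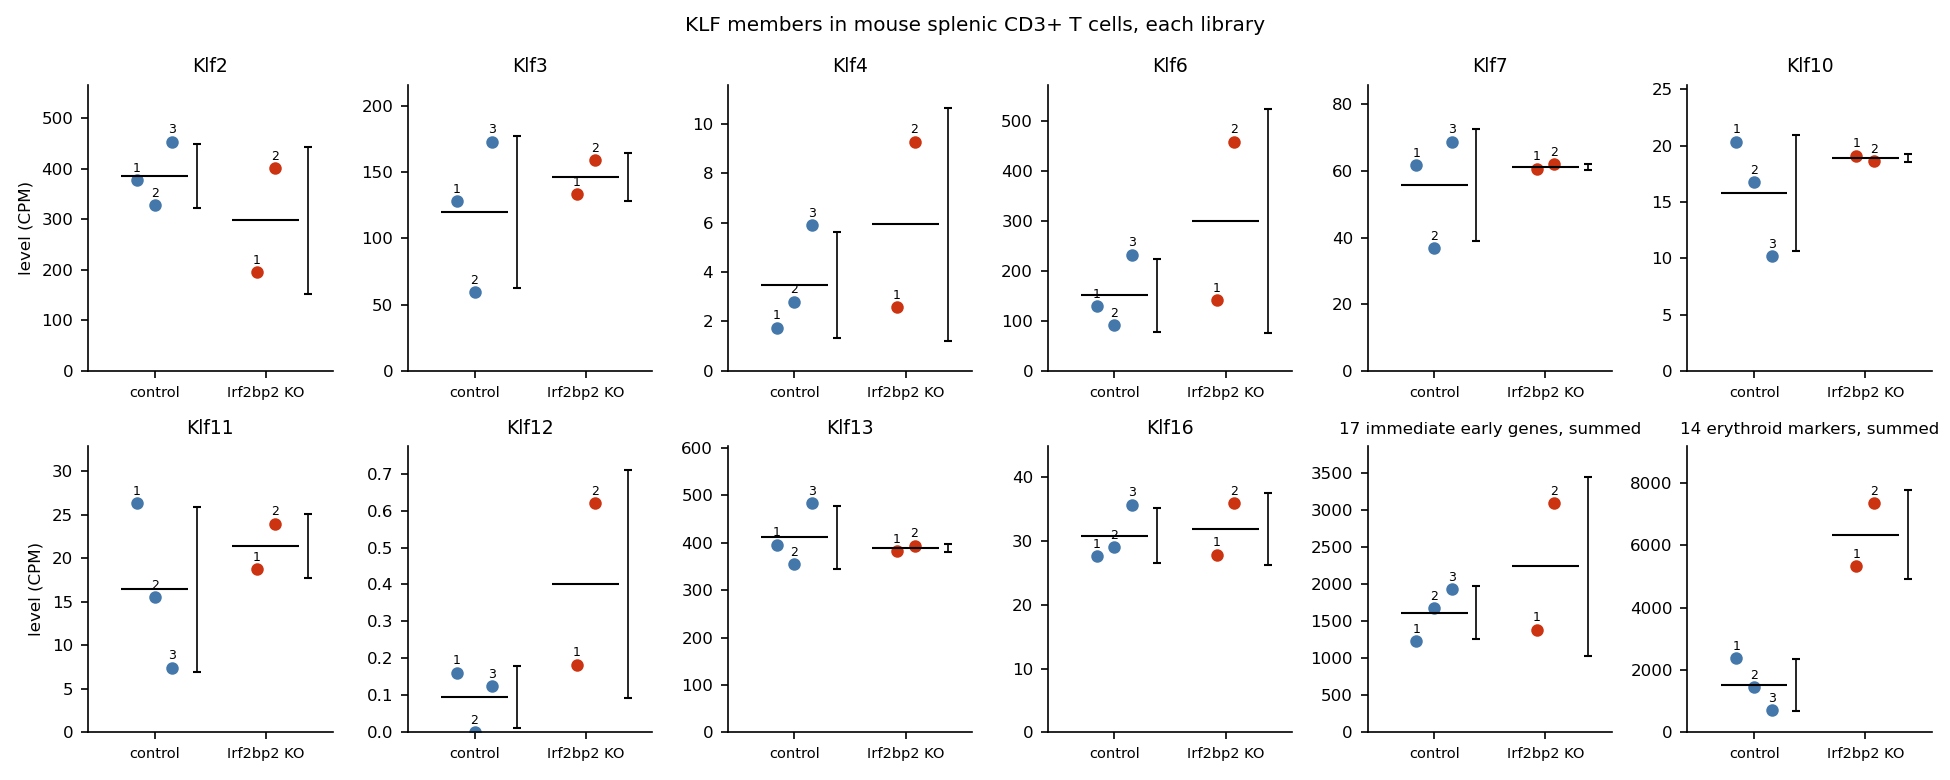
Level of each KLF member in CPM (vertical axis, from 0) in every mouse library, with controls in blue and Irf2bp2 KO in red, and the summed levels of 17 immediate early genes and 14 erythroid markers. Numbers are replicate numbers, horizontal lines group means and side bars the SD (n = 3 and n = 2). Klf6 and Klf4 are highest in knockout replicate 2, as is the immediate early sum, and the erythroid sum is higher in both knockout libraries.

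Klf2 had the highest level per length, with 209 ± 34.3 CPM per kb (SD, n = 3) in the controls. It measured 377, 328 and 453 CPM in the controls and 195 and 400 CPM in the knockout. Knockout replicate 1 was below all controls and replicate 2 was among them. The log2 fold change was -0.38 with a 95% interval of -1.11 to 0.36 (edgeR adjusted p = 0.63), and it was 0.032 without knockout replicate 1.

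Klf6 had the largest log2 fold change of the members, 0.99 (95% interval -0.31 to 2.29, edgeR adjusted p = 0.45). It measured 130, 90.9 and 232 CPM in the controls and 141 and 458 CPM in the knockout. The difference rested on knockout replicate 2, since without that library the log2 fold change was -0.12. Klf4 shared the highest 2 libraries, knockout replicate 2 and then control replicate 3, but not the order of the others, with 1.76, 2.79 and 5.88 CPM in the controls and 2.59 and 9.27 CPM in the knockout (log2 fold change 0.79, edgeR adjusted p = 0.64, and -0.43 without knockout replicate 2).

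Of 17 immediate early genes, 10 were highest in knockout replicate 2, 6 in control replicate 2 and 1 in control replicate 1. Fos measured 14.1, 37.5 and 102 CPM in the controls and 71.9 and 252 CPM in the knockout, and Jun 6.86, 10.4 and 92.2 CPM and 46.3 and 246 CPM. The dual-specificity phosphatase Dusp1 measured 19.3, 39.4 and 77.5 CPM and 81.6 and 304 CPM. In these genes knockout replicate 2 was the highest and, except for Dusp1, control replicate 3 the next highest. By contrast, Egr2, Ier2, Dusp2 and Zfp36 were highest in control replicate 2. Over the list, 9 genes were higher and 8 lower in the knockout, and the sum ran from 1234 to 1940 CPM in the controls and from 1389 to 3096 CPM in the knockout, with 0 genes called and Egr1 at 75.6 CPM in knockout replicate 2, within the 46.7 to 101 CPM of the controls. The part of these genes in the values of Klf6 and Klf4 was not tested.

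Klf7 measured 61.7, 36.7 and 68.7 CPM in the controls and 60.6 and 61.9 CPM in the knockout (log2 fold change 0.14, edgeR adjusted p = 0.85). An antisense gene overlaps 39.3% of its exon length and had 7 to 14 counts, against 1098 to 2321 for Klf7. Among the CtBP-dependent repressors, Klf3 measured 128, 59.2 and 173 CPM in the controls and 133 and 159 CPM in the knockout (0.29, 95% interval -0.66 to 1.24, adjusted p = 0.80). Klf12 had 6, 0 and 2 counts in the controls and 7 and 22 in the knockout and was not tested. Its level per length was 0.0137 CPM per kb in the controls, where KLF12 in sh-NC cells measured 8.58 CPM per kb.

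The SIN3A-dependent members Klf13, Klf16, Klf10 and Klf11 had log2 fold changes of -0.08, 0.05, 0.25 and 0.37. Klf13, second to Klf2 per length with 54.6 CPM per kb in the controls, measured 396, 355 and 483 CPM in the controls and 382 and 394 CPM in the knockout (95% interval -0.48 to 0.31, edgeR adjusted p = 0.86). Klf16 measured 27.6, 29.0 and 35.7 CPM against 27.8 and 35.9 CPM. Klf10 measured 20.3, 16.7 and 10.2 CPM in the controls and 19.1 and 18.6 CPM in the knockout, and Klf11 26.3, 15.6 and 7.45 CPM and 18.8 and 24.0 CPM. Control replicate 3, the library of lowest depth, was the lowest for Klf10 and Klf11 and the highest control for Klf2, Klf3, Klf4, Klf6, Klf7, Klf13 and Klf16.

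Per length, the controls ran from Klf2 over Klf13 (54.6), Klf6 (34.4), Klf16 (11.5), Klf3 (10.7), Klf7 (6.85), Klf11 (3.79), Klf10 (3.77) and Klf4 (1.14 CPM per kb) to Klf12. Klf6 overlapped Klf13, and each gene from Klf3 to Klf10 overlapped the one above it, whereas Klf2 was separate from Klf13, Klf16 from Klf6, Klf4 from Klf10 and Klf12 from Klf4.

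Of 9 other family members tested in the mouse, 1 was called higher and 0 lower, against 2.47% and 0.111% of all genes. The call was Klf1, the erythroid factor that activates globin genes. It measured 5.02, 11.8 and 3.82 CPM in the controls and 43.4 and 53.2 CPM in the knockout (log2 fold change 2.79, edgeR adjusted p = 0.029), and the call was lost without control replicate 1 or either knockout library (adjusted p of 0.14, 0.11 and 0.19). It moved with the erythroid markers, of which it is 1. All 14 with a row were above every control in both knockout libraries, an order that 18.2% of all genes shared. Of the 14, 8 were called higher, against 2.47% of all genes, and none was at 0 in all libraries. The sum of these markers was 714 to 2390 CPM in the controls and 5339 to 7349 CPM in the knockout. The 13 T cell markers were summed at 6037 to 7129 CPM in the controls and 4830 to 5082 CPM in the knockout. Of the 13, 11 were lower, and 10 were below every control in both knockout libraries, an order that 17.8% of all genes shared. Their median log2 fold change was -0.43 against -0.018 over all genes. None was called, against 0.111% of all genes called lower. Fewer T cells and less RNA per cell cannot be told apart in such bulk samples. Plasma cell markers were summed at 432 to 1177 CPM in the controls and 1166 to 1535 CPM in the knockout. For B cell markers the sums were 36.9 to 268 CPM and 37.5 to 108.5 CPM, and for myeloid markers 45.5 to 417 CPM and 97.4 to 153 CPM. The part of the erythroid and other transcripts in the KLF values was not tested.

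In the mouse, 0 of 16 KLF regulators were called, against 2.47% of all genes called higher and 0.111% called lower. At such shares 0 of 16 tells little about them. Foxo1 measured 322, 264 and 369 CPM in the controls and 269 and 240 CPM in the knockout (log2 fold change -0.32, edgeR adjusted p = 0.44). Of the trafficking genes tied to KLF2 that are shown, none was called. Ccr7 (-0.53) and S1pr4 (-0.46) were below all controls in both knockout libraries, an order that 17.8% of all genes shared. Their edgeR adjusted p-values were 0.12 and 0.14. S1pr1 measured 447, 375 and 463 CPM in the controls and 299 and 409 CPM in the knockout (-0.28, edgeR adjusted p = 0.54). Itgb7 (-0.13), Cxcr3 (0.22) and Cd69 (0.42) overlapped between the groups. Among 12 other targets, 1 was called higher and 0 lower, against 2.47% and 0.111% of all genes. By sign 8 were higher and 4 lower, with a median log2 fold change of 0.15 against -0.018 over all genes. Ccl5, the chemokine target of KLF13, was that call, with 96.1, 80.4 and 81.1 CPM in the controls and 175 and 268 CPM in the knockout (1.37, edgeR adjusted p = 0.022), while Klf13 itself overlapped between groups. Its call was lost without control replicate 1 (adjusted p = 0.088) or without knockout replicate 2 (adjusted p = 0.16).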

How the data were processed

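RNA-seq libraries of J.gamma1 cells and of mouse CD3+ T cells were analysed by their labels. The authors aligned reads with HISAT2 2.2.0 (hg38 for the human and mm10 for the mouse libraries per the processing notes) and used StringTie. They deposited whole-number counts per Ensembl gene and library, without normalization. How coverage became counts, and whether strand was used, is not given in the sources used here.

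Rows of annotated genes (GENCODE 44 and M21), which held 98.0% and 99.8% of the counts, passed through filterByExpr and TMM scaling and then the quasi-likelihood test of edgeR 4.0.16 in R 4.3.3, by table and with group as sole term. CPM uses TMM sizes, and length is the union of exons. Promoters were read from hg38 with Python 3.11.15. Other settings tried were upper-quartile and RLE scaling, DESeq2 1.42.0, 2 other filters, other fold thresholds, all rows, halved counts, a replicate block and each library left out. Replicates differed by more than sampling noise (chi-square per gene of at least 20.0).

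The members and lists were chosen with earlier results of these data known. All members are named with every library's value. Of other lists, genes are named that were called or that a member is set beside, and any others (among them Fos, Jun, Egr1, CCR7 and SP1) were chosen after their values were seen. On simulated counts edgeR recovered 154 of 194 changed genes among 15449 for J.gamma1 (16 false calls). For the mouse it recovered 126 of 197 among 14978 (10 false calls). These counts pool all changed genes, and recovery at the log2 fold changes of the KLF members was not tested separately. Of the trafficking genes, some results are not reported here.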

Additional observations from a re-analysis of the deposited data

How the results depend on the processing

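In J.gamma1, 1 member was called with every gene of at least 1 count in any library and 1 at a log2 fold change of at least 1, against 3 in the main test, and 2 to 6 when each library was left out. All genes called fell from 1657 to 715 and 580 under those settings and lay between 837 and 2751 with 1 library left out. KLF16 then ranged from -0.02, without sh-IRF2BP2 replicate 1, to 0.308, so that its sign reversed. In the mouse, 0 members were called under all alternatives, whereas all genes called rose from 396 to 797 with DESeq2 and lay between 7 and 567 with 1 library left out. With 1 mouse library left out the sign also reversed for Klf2 (-1.008 to 0.032, without knockout replicate 1), Klf3 (-0.021, without control replicate 2, to 0.641), Klf4 (-0.433, without knockout replicate 2, to 1.411), Klf6 (-0.117, likewise, to 1.58), Klf7 (-0.071, without control replicate 2, to 0.313), Klf13 (-0.161 to 0.043, without control replicate 3) and Klf16 (-0.167, without knockout replicate 2, and -0.013, without control replicate 1, to 0.202). The cause was not tested. Fits that leave 1 library in a group assume that it varies like the other group.

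With the replicate number as a block, 3 J.gamma1 and 0 mouse members were called, 2467 and 442 of all genes were called, and Klf13 reversed to 0.05. The labels do not say that equal numbers pair the libraries, whose deviations correlated at 0.26 in J.gamma1 and at 0.19 and -0.13 in the mouse. Upper-quartile scaling moved the J.gamma1 calls to 722 higher and 946 lower, with 3 members called. Depth limits KLF4 in J.gamma1 and Klf12 in the mouse.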
